A study of Rattus norvegicus with 20 samples.

Results

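Genes following the current surface are those of cultured mesenchymal stromal cells (MSCs) whose RNA differed with the stiffness the cells sat on at harvest, whichever stiffness they were primed on. They were chosen from the RNA-seq counts of the week 5 libraries, in which cells had stayed on 1 surface or had been moved to the other for the last 2 weeks. Each count was divided by the total of its library and multiplied by 1000000 (CPM), and 4 ratios of soft over stiff were taken, each between 2 libraries with one priming surface and one replicate number: 5w2 over 3w2→2w100 in replicates 1 and 2, and 3w100→2w2 over 5w100 in replicates 1 and 2. A gene was a member if its mean over the 8 libraries was at least 10 CPM and all 4 ratios were at least the inverse of 0.8, or all 4 were at most 0.8. Of 30560 genes in the table, 8434 reached the level and 3 met the rule, which is 0.0356% of the genes at that level. ENSRNOG00000019648 and ENSRNOG00000056219 were higher on the soft surface, and ENSRNOG00000008697 was higher on the stiff surface. The week 5 ratios chose these genes, so they are given as a description with no test.

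The genes are named by Ensembl identifier, since the files used here do not pair these identifiers with symbols. What the 3 genes encode, where they lie in the genome and their sequences are therefore not given, and the labelled cell type was not checked against marker genes.

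MSCs came from the bone marrow of female Wistar rats, which was plated directly on gelatin-coated silicone of 2 kPa, like healthy skin, or of 100 kPa, like scar. After a first passage on that surface the MSCs were selected with antibodies to CD54 and CD90. They were passaged every week and harvested after 1 week (1w2 and 1w100, 3 libraries each), 3 weeks (3w2 and 3w100, 3 libraries each) or 5 weeks (5w2 and 5w100, 2 libraries each). In 3w2→2w100 and 3w100→2w2, with 2 libraries each, cells spent 3 weeks on the first surface and 2 weeks on the other. The study describes its replicates as MSCs of different rats, but the labels do not name a rat, so p-values measure the spread between these libraries.

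Adherent cells sense stiffness through integrins and the tension of their actin cytoskeleton, and this tension controls regulators such as YAP, TAZ and MRTF. In MSCs a stiff surface promotes the myofibroblast state, with α-smooth muscle actin in stress fibers and more matrix production. Some of this response follows the surface of the moment and some of it persists after the surface is changed, which is called mechanical memory. In bulk RNA-seq, fewer cells that express a gene and less RNA per cell cannot be told apart.

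The libraries held 16127907 to 24139128 counts on genes, and the 8 libraries of the rule 17543926 to 24103082. Within the 4 pairs of the rule, the chi-square per degree of freedom over genes was 6.03 to 11.8, and between replicates of one group it was 18.6 to 98.5, so no 2 of these libraries agreed within sampling noise and the pairs of the rule were closer to each other than replicates were.

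ENSRNOG00000019648 had the highest mean level of the 3 genes, 221 CPM over the 8 libraries. In soft-primed cells it was at 538 and 205 CPM in 5w2 and at 333 and 149 CPM in 3w2→2w100, in replicates 1 and 2. In stiff-primed cells it was at 276 and 60.4 CPM in 3w100→2w2 and at 179 and 27.9 CPM in 5w100. The soft library was the higher one in each pair, but the 4 libraries on soft (60.4 to 538 CPM) overlapped the 4 on stiff (27.9 to 333 CPM). The 4 ratios were 1.61 and 1.37 in soft-primed cells and 1.54 and 2.16 in stiff-primed cells. Exact 95% intervals for counting error lay above the inverse of 0.8 in 4 of 4 pairs, the lowest of them from 1.31 to 1.44. Here and below, such intervals are of ratios that chose the genes, so lying off 1 was largely set by that choice. They also leave out the spread between libraries, while the libraries of each pair differed by more than sampling noise. The intervals are therefore a description and no support for the members.

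ENSRNOG00000056219 was at 118 and 26.0 CPM in 5w2 and at 89.9 and 20.6 CPM in 3w2→2w100. It was at 30.8 and 63.1 CPM in 3w100→2w2 and at 21.7 and 49.4 CPM in 5w100. Replicate 1 was the higher replicate after soft priming and the lower one after stiff priming, and libraries on soft (26.0 to 118 CPM) overlapped those on stiff (20.6 to 89.9 CPM). Its ratios of 1.32, 1.26, 1.42 and 1.28 were close to the threshold. The counting interval lay above 1 in 4 of 4 pairs and above the inverse of 0.8 in 0 of 4. In soft-primed replicate 2, with 569 counts against 362, the interval ran from 1.101 to 1.44. With TMM factors in the CPM this gene did not meet the rule, while the other 2 genes did.

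ENSRNOG00000008697 was at 57.7 and 8.58 CPM in 5w2 and at 74.6 and 11.5 CPM in 3w2→2w100. In stiff-primed cells it was at 239 and 202 CPM in 3w100→2w2 and at 370 and 300 CPM in 5w100. The stiff library was the higher one in each pair, and the libraries on soft ranged from 8.58 to 239 CPM and those on stiff from 11.5 to 370 CPM. Its soft over stiff ratios were 0.773 and 0.749 after soft priming and 0.647 and 0.674 after stiff priming. The counting interval lay below 0.8 in 2 of 4 pairs, both stiff-primed, and below 1 in 4 of 4.

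For each of the 3 genes the current surface had the smallest median of 3 kinds of difference at week 5, beside priming surface and replicate. The median fold between the libraries of its 4 pairs, taken in either direction, was 1.58 in ENSRNOG00000019648, 1.30 in ENSRNOG00000056219 and 1.41 in ENSRNOG00000008697. Between the priming surfaces, in the 4 pairs of one current surface and one replicate number, it was 2.57, 3.05 and 10.8 in the same order. In ENSRNOG00000056219 these priming ratios went opposite ways, at 3.84 and 4.14 in replicate 1 and 0.412 and 0.418 in replicate 2. Its 3.05 is therefore not a priming difference of a steady direction. Numbers correlated across primings only at r of 0.168 to 0.246, so these pairs also hold differences between replicates. Between replicates 1 and 2 of a group it was 3.46, 3.15 and 2.84. The order was not the same in every pair: in ENSRNOG00000008697 after stiff priming, replicates 1 and 2 differed by 1.18 and 1.23 fold, less than the current surfaces did at ratios of 0.647 and 0.674. The label of genes that follow the current surface therefore describes a ratio within pairs of libraries and not the rank of the week 5 levels.

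**Figure D1:**
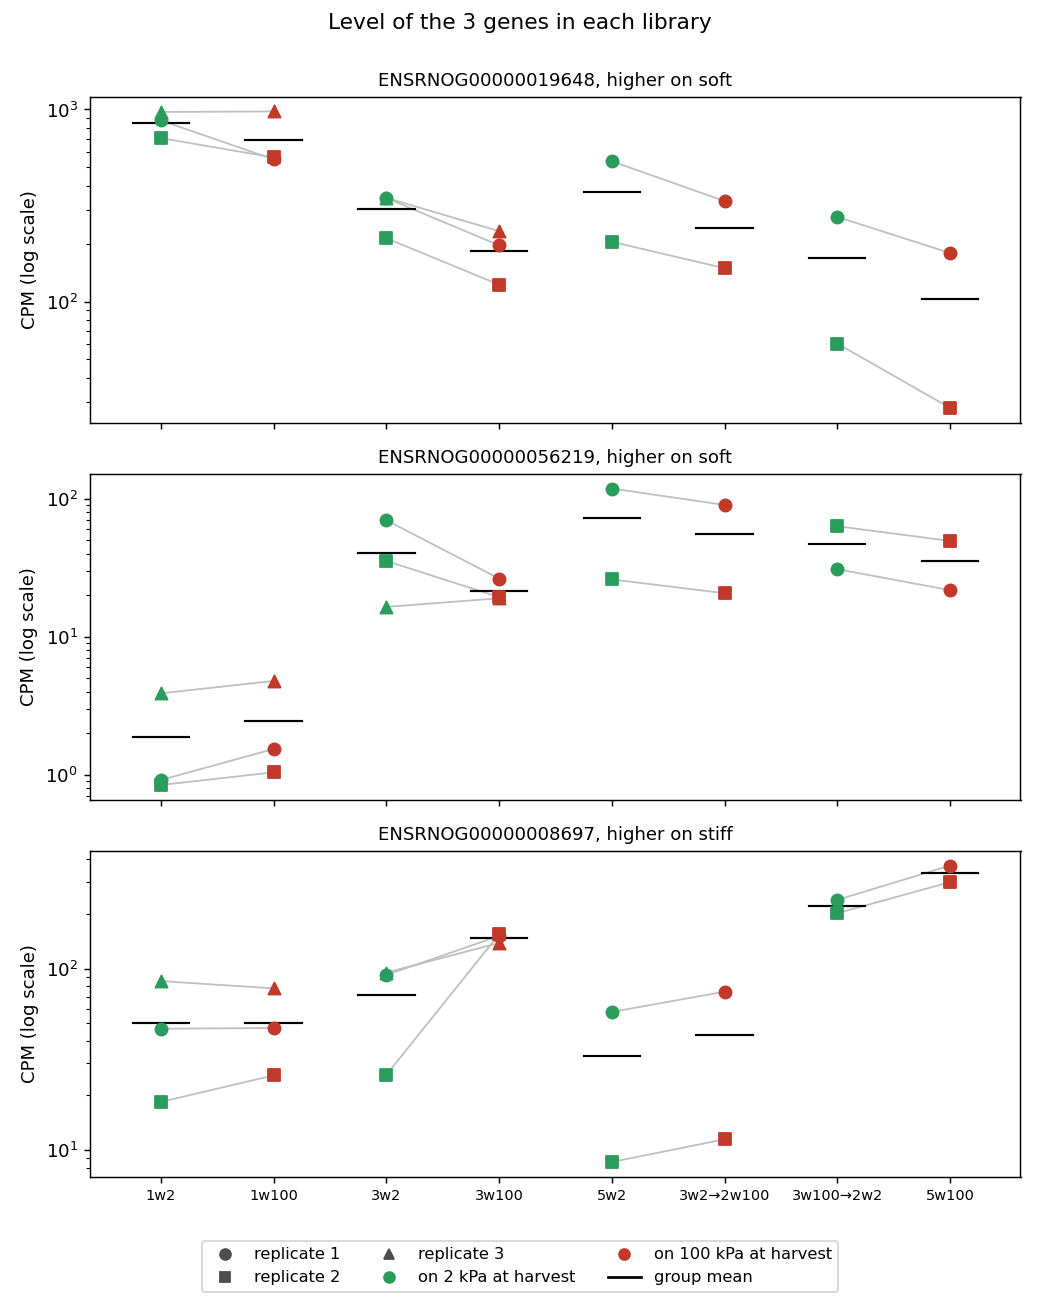
Level of each of the 3 genes in CPM on a log scale (vertical axis) in the 8 groups (horizontal axis), with 1 point for each library, green for 2 kPa and red for 100 kPa at harvest. Marker shapes give the replicate number, grey lines join soft and stiff libraries of one number and, at week 5, of one priming surface, and black bars are group means. The grey lines at week 5 slope the same way in 4 of 4 pairs of each gene, while the distance between replicates is larger than these slopes in the week 5 groups of ENSRNOG00000019648 and ENSRNOG00000056219 and, for ENSRNOG00000008697, after soft priming.

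Ranked by the ratio nearest to 1, the genes higher on soft had 1.37 and 1.26 inside the threshold and 1.24, 1.19 and 1.18 just outside it. Among genes higher on stiff 1 lay inside, at 0.773, and the next had 0.855, 0.867 and 0.868. With 3 of 4 pairs past the threshold there were 18 genes in the soft direction and 3 in the stiff direction, and with 2 of 4 pairs 219 and 45. A single pair put between 1.46% and 6.58% of the 8434 genes at the inverse of 0.8 or more and between 0.783% and 1.99% at 0.8 or less.

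The rule was also applied with the ratios of 1 or more pairs inverted, in the 7 patterns that differ from the given one. At the threshold of the rule the given orientation held 3 genes and the 7 inverted patterns held 0 to 2 each, 3 in all. Inverting soft-primed replicate 2 gave 2 genes, inverting stiff-primed replicate 2 gave 1, and the other 5 patterns gave 0. At a looser ratio of 1.1 or its inverse, a value added after the data were seen, the given orientation held 52 genes, 33 in the soft and 19 in the stiff direction. Here the inverted patterns ranged from 2 to 122 with a median of 14. The largest number, 122, came from inverting soft-primed replicate 2, so more genes went against the other 3 pairs in that pair than followed the surface in all 4. Inverting both stiff-primed pairs, which turns the ratio into cells kept on a surface over cells that were switched, gave 2 genes. These counts are descriptions of 8 libraries and carry no test.

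**Figure D2:**
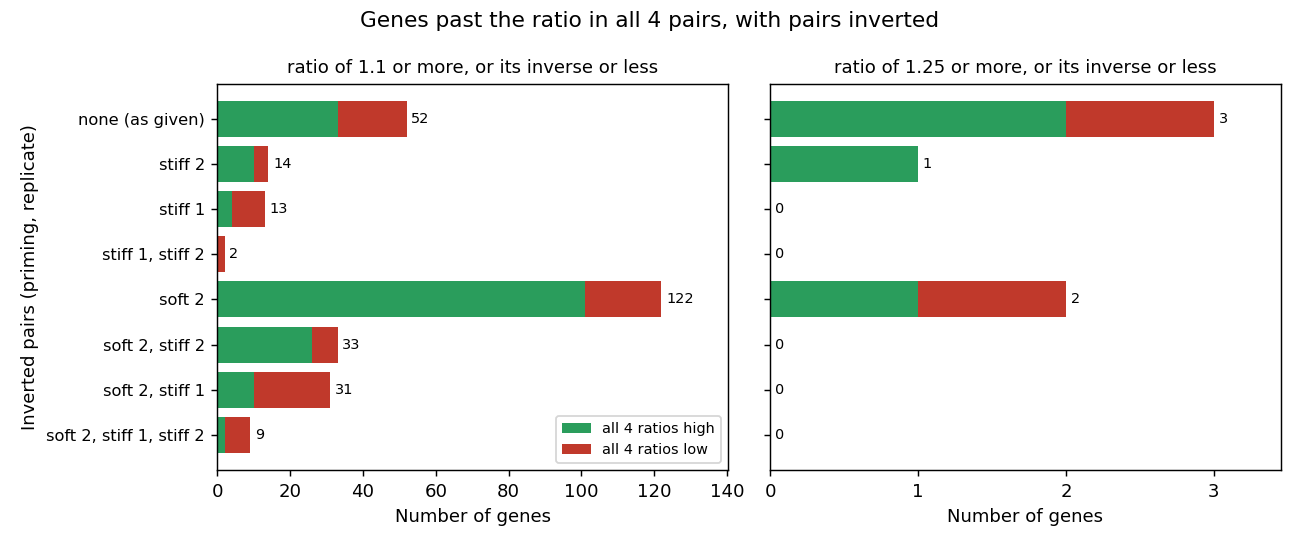
Number of genes (horizontal axis) past a ratio of 1.1 (left) or of the rule (right), or its inverse, in all 4 pairs when the pairs named on the vertical axis were inverted; green counts genes with all 4 ratios high and red those with all 4 low. The given orientation holds 52 and 3 genes, and inverting soft-primed replicate 2 gives 122 and 2.

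The 12 libraries of weeks 1 and 3 were not used by the rule, and in them the surface at harvest is also the surface of priming. Counts were compared with edgeR's quasi-likelihood test over 14034 genes, with TMM scaling, 1 model of all 8 groups and Benjamini-Hochberg adjustment over all genes. Log2 fold changes are soft minus stiff, with a standard error (SE) from the same test. At 1 week 0 of 14034 genes were called at an adjusted p below 0.05 (0%), 54 passed 0.05 before adjustment, and DESeq2 also called 0. At 3 weeks edgeR called 0 (0%), with 863 genes past the unadjusted threshold, and DESeq2 called 10. Over both times together edgeR called 0 (0%), with 447 genes past the unadjusted threshold, and DESeq2 called 2. No member was among the called genes of either tool. The edgeR fit had no term for the replicate number, although same-numbered libraries correlated at 1 week at r of 0.626 to 0.777. It could therefore miss surface differences within pairs, and the lack of calls does not show that the surfaces were alike.

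At 1 week ENSRNOG00000019648 was at 877, 710 and 971 CPM in 1w2 and at 550, 563 and 977 CPM in 1w100. Soft was higher in replicates 1 and 2, with ratios of 1.60 and 1.26, and the third ratio was 0.994. The log2 fold change was 0.29 (SE 0.61, adjusted p = 1 by edgeR), with 0.11 when replicate 1 of 1w100 was dropped and 0.65 when its replicate 3 was. ENSRNOG00000056219 was low at this time, at 0.915, 0.842 and 3.89 CPM in 1w2 and 1.54, 1.04 and 4.78 CPM in 1w100, which are 14 to 92 counts. Its 3 ratios of 0.596, 0.810 and 0.813 all lay on the side opposite to week 5, with a log2 fold change of -0.40 (SE 0.92, adjusted p = 1 by edgeR). ENSRNOG00000008697 was at 46.6, 18.4 and 85.3 CPM in 1w2 and 47.1, 25.8 and 77.8 CPM in 1w100, and its group means of 50.1 ± 33.6 and 50.2 ± 26.2 CPM (SD, n = 3) lay within each other's spread. Its 3 ratios were 0.990, 0.714 and 1.097. By the fitted sign 1 of 3 genes had the direction of the rule at 1 week, and 2 of 3 with the replicate number as a block or without 1w2 replicate 3 or any 1 of the 3 libraries of 1w100. At this time 48.3% of all tested genes were above 0 and 51.6% below. The soft and stiff libraries of each of the 3 genes overlapped, while in 1.5% of all genes the soft libraries lay above all stiff ones and in 1.68% the stiff ones above all soft ones.

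At 3 weeks 3 of 3 genes had the direction of the rule, beside 48.7% of all tested genes above 0 and 51.2% below, and none of the 3 passed the test. ENSRNOG00000019648 was at 345, 214 and 346 CPM in 3w2 and at 196, 122 and 232 CPM in 3w100, with ratios of 1.76, 1.74 and 1.49. Soft was higher in each same-numbered pair although replicate 2 of 3w2 lay below replicate 3 of 3w100. Its log2 fold change was 0.70 (SE 0.62, adjusted p = 0.891 by edgeR). In a fit on only the 3-week groups edgeR gave an unadjusted p of 0.0334 and an adjusted p of 0.58. ENSRNOG00000056219 was at 69.7, 35.3 and 16.4 CPM in 3w2 and at 26.3, 19.3 and 19.0 CPM in 3w100, with ratios of 2.65, 1.83 and 0.866. Soft was the higher one in 2 of 3 pairs, and the log2 fold change was 0.90 (SE 0.72, adjusted p = 0.879 by edgeR), which was 0.26 without 3w2 replicate 1. On only the 3-week groups edgeR gave this gene an unadjusted p of 0.106 and an adjusted p of 0.615.

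ENSRNOG00000008697 was at 92.3, 26.0 and 95.1 CPM in 3w2 and at 151, 155 and 139 CPM in 3w100. All stiff libraries lay above all soft ones, a pattern that 6.35% of all 14034 genes had at this time, beside 7.77% with the opposite pattern. The 3 ratios were 0.609, 0.168 and 0.687. Its log2 fold change was -1.08 (SE 0.73, adjusted p = 0.853 by edgeR), and without 3w2 replicate 2 it was -0.69. On only the 3-week groups edgeR gave an unadjusted p of 0.0414 and an adjusted p of 0.58.

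Over the 12 libraries of 1 and 3 weeks together, the log2 fold change was 0.50 (SE 0.44) in ENSRNOG00000019648, 0.25 (0.59) in ENSRNOG00000056219 and -0.54 (0.51) in ENSRNOG00000008697, each with an edgeR adjusted p of 1.00. The signs were those of the rule in 3 of 3 genes, beside 48.3% of all tested genes above 0 and 51.7% below 0. The sign of ENSRNOG00000056219 turned without 1w2 replicate 3, to -0.30, and without 3w2 replicate 1, to -0.068. The change of the surface difference from 1 to 3 weeks was 0.42 (SE 0.87), 1.30 (1.17) and -1.08 (1.03) on the log2 scale in the same order, with edgeR adjusted p values of 1.00.

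**Figure D3:**
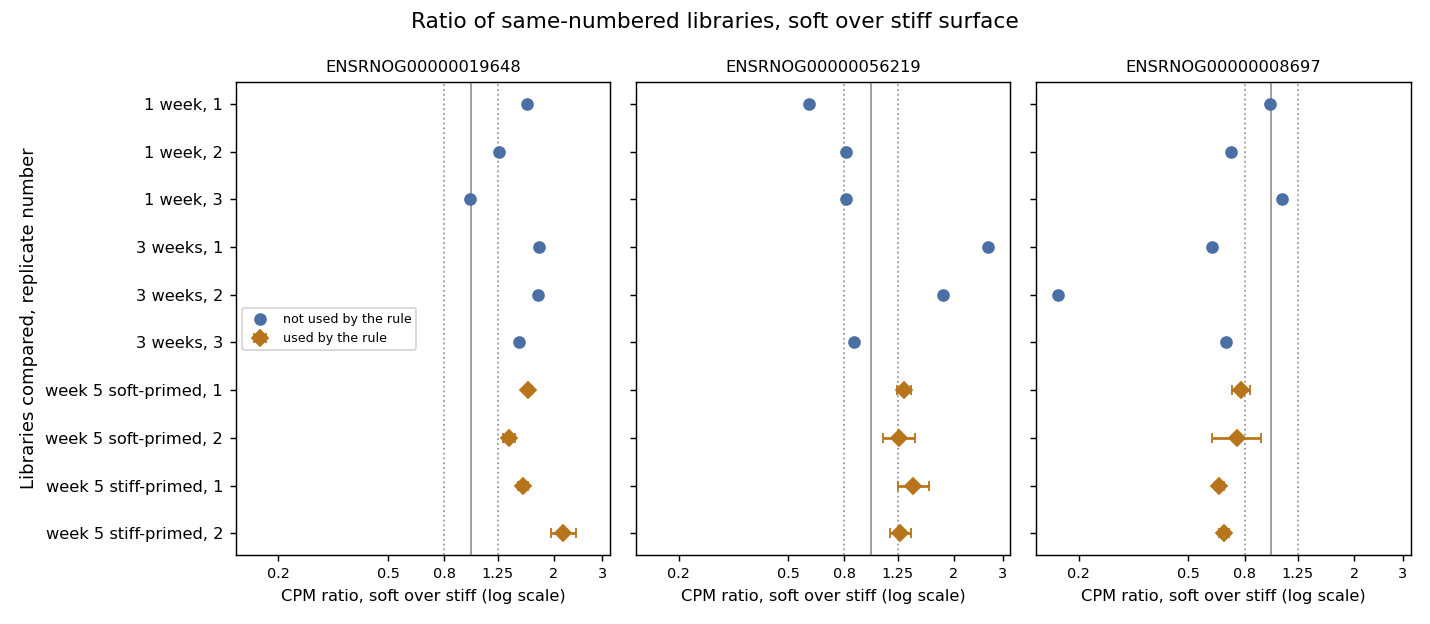
CPM ratio of soft over stiff (horizontal axis, log scale) between same-numbered libraries, for 1 and 3 weeks (blue, not used by the rule) and for the 4 pairs of week 5 (orange, used by the rule, with 95% intervals for counting error). Dotted lines mark 0.8 and its inverse. The 1-week ratios of the 3 genes lie on both sides of 1 or, for ENSRNOG00000056219, all below it. At 3 weeks the ratios lie on the side of the rule except in replicate 3 of ENSRNOG00000056219, at 0.866. None of the 3 genes passed the test at 3 weeks, and the share of all genes with such ratios was not counted.

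Priming surface at week 5 is a contrast of the same 8 libraries whose levels and ratios chose the members. It is orthogonal to the ratios of the rule, but its p-values for members do not come from separate libraries. Its fit counted the 8 libraries as independent, with no term for same-numbered libraries of a priming surface. Deviations of these libraries from their group means correlated at r = 0.760 after soft and 0.802 after stiff priming. The p-values, the calls and n = 4 of this contrast may therefore overstate the replication. edgeR called 1364 of 14034 genes (9.72%), of which 435 were soft-high (3.1%) and 929 stiff-high (6.62%). ENSRNOG00000008697 was 1 of the latter. It was at 8.58 to 74.6 CPM in the 4 soft-primed libraries and at 202 to 370 CPM in the 4 stiff-primed ones, with no overlap, a pattern that 10.5% of all genes had, beside 7.91% with all soft-primed libraries above the stiff-primed ones. Its log2 fold change was -2.84 (SE 0.67, adjusted p = 0.0167 by edgeR). Without 5w2 replicate 2 the adjusted p was 0.0567 at a log2 fold change of -2.44, and in a fit on only the week 5 groups it was 0.12. This gene was higher on stiff in both senses: after stiff priming, and within each priming on the stiff surface at harvest.

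ENSRNOG00000019648 was at 306 ± 173 CPM (SD, n = 4) after soft and 136 ± 114 CPM (SD, n = 4) after stiff priming, a log2 fold change of 1.18 (SE 0.54, adjusted p = 0.185 by edgeR). It passed the threshold without 5w100 replicate 1, at a log2 fold change of 2.16 and an adjusted p of 0.018, and without 3w100→2w2 replicate 1, at 1.92 and 0.046. It also passed with the replicate number as a block, at 1.36 and 0.0243. This block gave each number the same effect in all groups, while numbers correlated across primings only at r of 0.168 to 0.246. ENSRNOG00000056219 was at 63.7 ± 48.1 CPM (SD, n = 4) after soft and 41.2 ± 18.6 CPM (SD, n = 4) after stiff priming, with a log2 fold change of 0.65 (SE 0.62, adjusted p = 0.540 by edgeR). Replicates 1 and 2 went opposite ways in this gene, with soft over stiff priming ratios of 3.84 and 4.14 in replicate 1 and 0.412 and 0.418 in replicate 2. Without 5w2 replicate 1 its log2 fold change was -0.085, and without 3w2→2w100 replicate 1 it was -0.055.

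From 1 to 3 weeks, over both surfaces, edgeR called 2929 of 14034 genes (20.9%), 1470 higher at 3 weeks (10.5%) and 1459 higher at 1 week (10.4%). This fit had no term for the replicate number, and each number was counted on both surfaces. At 1 week same-numbered soft and stiff libraries correlated at r of 0.626 to 0.777. The p-values, the calls and n = 6 may therefore overstate the replication. ENSRNOG00000056219 rose from 2.17 ± 1.72 to 31.0 ± 20.2 CPM (SD, n = 6 each), a log2 fold change of 3.89 (SE 0.61, adjusted p = 0.000408 by edgeR), and all 3-week libraries lay above all 1-week libraries, as in 3.51% of all genes. ENSRNOG00000019648 fell from 775 ± 195 to 243 ± 88.2 CPM (SD, n = 6 each), a log2 fold change of -1.61 (SE 0.45, adjusted p = 0.0185 by edgeR), and all 1-week libraries lay above all 3-week libraries, as in 10.5% of all genes. ENSRNOG00000008697 was at 50.2 ± 26.9 and 110 ± 49.3 CPM (SD, n = 6 each) at 1 and 3 weeks, with overlap, a log2 fold change of 1.13 (SE 0.52, adjusted p = 0.137 by edgeR). The 2 genes higher on soft at week 5 thus went opposite ways with time.

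**Figure D4:**
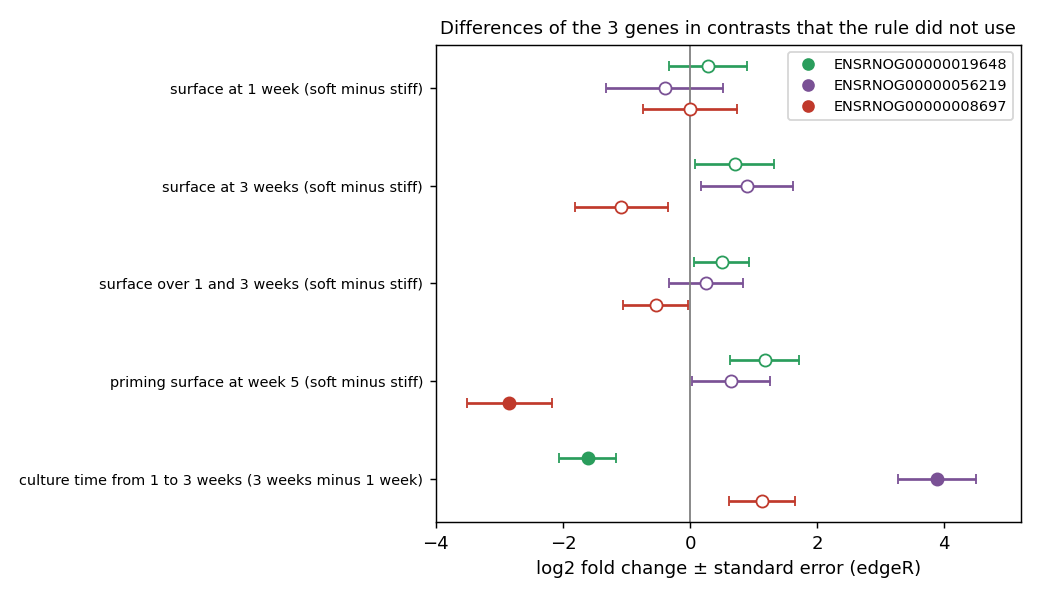
Log2 fold change of each of the 3 genes (horizontal axis, edgeR, bars are standard errors) in the 5 contrasts that the rule did not use (vertical axis); filled points passed an adjusted p of 0.05. The surface contrasts of 1 and 3 weeks hold no filled point, the priming contrast holds 1, at -2.84, and the contrast of culture time holds 2, at 3.89 and -1.61. The priming contrast is of the libraries that chose the genes.

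Ordered by group mean, ENSRNOG00000008697 ran from 335 ± 49.6 CPM in 5w100 (SD, n = 2) through 221 ± 26.2 in 3w100→2w2 (SD, n = 2), 148 ± 8.57 in 3w100 (SD, n = 3) and 71.1 ± 39.1 in 3w2 (SD, n = 3) to 33.1 ± 34.7 in 5w2 (SD, n = 2). The highest 3 groups were those primed on the stiff surface for at least 3 weeks, and their libraries overlapped neither each other nor those of 3w2, while each of the lower 5 groups overlapped its neighbour. ENSRNOG00000019648 was highest in 1w2, at 853 ± 133 CPM (SD, n = 3), and 1w100, at 696 ± 243 CPM (SD, n = 3), and lowest in 5w100, at 103 ± 107 CPM (SD, n = 2). Only the step from 1w100 to 5w2, at 371 ± 235 CPM (SD, n = 2), separated neighbours of its order, and in the other 6 of 7 steps the libraries overlapped. ENSRNOG00000056219 was highest in 5w2, at 72.1 ± 65.3 CPM (SD, n = 2), and lowest in 1w2, at 1.88 ± 1.74 CPM (SD, n = 3). In its order too 6 of 7 neighbours overlapped, and the groups that did not were 3w100, at 21.5 ± 4.16 CPM (SD, n = 3), and 1w100, at 2.45 ± 2.03 CPM (SD, n = 3). Groups were sorted by their own means, and the week 5 libraries also chose the genes. The share of all genes with such separate neighbours was not counted, so these orders are a description only.

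The 52 genes past a ratio of 1.1 in all 4 pairs, which hold the 3 members, were looked at in the same libraries as a description. Of the 33 higher on soft, 18 were above 0 at 1 week and 24 at 3 weeks, with a median log2 fold change of 0.028 and 0.20, and of the 19 higher on stiff, 14 were below 0 at 1 week and 13 at 3 weeks, with a median of -0.076 and -0.21. Among the 8434 genes at the level of the rule, 49.8% were above 0 at 1 week and 50.7% at 3 weeks, with medians within 0.01 of 0. For the priming surface, 24 of the 33 were above 0 and 14 of the 19 below 0, beside 54.5% above and 45.5% below among the 8434 genes. edgeR called 0 of the 52 for the surface at 1 or 3 weeks, and for the priming surface it called 4 of the 33, 2 in each direction, and 5 of the 19, each higher after stiff priming, beside 3.1% of all genes called soft-high and 6.62% called stiff-high. With time, 14 of the 19 genes higher on stiff were higher at 3 weeks, with 8 called in that direction and 1 in the other. Of the 33 genes higher on soft, 22 were higher at 1 week, with 5 called in that direction and 2 in the other. Beside these, 56.7% of the 8434 genes were higher at 3 weeks and 43.3% at 1 week, and 10.5% and 10.4% of all tested genes were called in these directions. The called shares for priming and time are over all tested genes, including those below the level of the rule. They were not counted among the 8434 genes, so they are not matched in level to the 52. The libraries of the priming contrast also chose the 52.

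A second wider set kept the ratio of the rule and lowered the level to a mean of 1 CPM, which gave 28 genes, 22 soft-high and 6 stiff-high. Of the 22, 9 were above 0 at 1 week (median log2 fold change -0.048), 15 at 3 weeks (median 0.068) and 11 over both times, and of the 6, 3 were below 0 at 1 week, 5 at 3 weeks and 4 over both. Among all 14034 tested genes 48.3% were above 0 at 1 week, 48.7% at 3 weeks and 48.3% over both. Below 0 were 51.6%, 51.2% and 51.7% in the same order. For the priming surface 9 of the 22 were above 0 and 13 below, with a median of -0.105, and 4 of the 6 were below 0. The medians of the soft-high genes in the wider sets thus lay on opposite sides of 0 at 1 week and for the priming surface.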

How the data were processed

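Bulk polyA RNA-seq of 20 libraries in 8 groups was analysed, with groups and replicate numbers taken from the sample labels. Raw counts, 1 row per Ensembl gene, were deposited by the authors: reads were trimmed with Trim Galore, checked with FastQC, mapped to mRatBN7.2 (rn7) with HISAT2 and counted with featureCounts. Tool versions, the strand setting and the handling of reads mapping to more than 1 place were not given in the sources used here. Values of genes that overlap or have close copies may therefore be split between them. Of 30560 rows 0 named no gene, and 0 identifiers could be matched to symbols, so the gene lists, marker lists, promoter motifs and the parts of the rule for named genes that need symbols were not used here. The members number 3 and are all named.

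Ratios used CPM on library totals. Counts were tested in R 4.3.3 with edgeR 4.0.16 (TMM, filterByExpr with a minimum count of 10 and a total of 15, quasi-likelihood test, all 8 groups in 1 model, no block), with calls at 0.05 after Benjamini-Hochberg adjustment over all genes. Standard errors were the log2 fold change divided by the root of the test's F. DESeq2 1.42.0, RLE factors, no filter, only the groups compared, the replicate number as a block, and each library left out were alternatives. The looser ratio of 1.1 was added after the data were seen. Between TMM and RLE the median of all genes moved by less than 0.1 on the log2 scale. Intervals of ratios are exact binomial at 95%, computed with scipy 1.17.1, for counting error only. The members and lists were chosen with earlier results of these data known.

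Replicate numbers were checked by the correlation of deviations from group means across genes. At 1 week r was 0.626, 0.650 and 0.777, at 3 weeks 0.389, 0.084 and 0.465, and at week 5 0.760 and 0.802 within a priming surface and 0.168 to 0.246 across. Tested on simulated data with a log2 difference of 2 in 200 of 14034 genes, the fit recovered 99.5% at 1 week, 99% at 3 weeks, and 100% for the other 3 comparisons. Unchanged genes called numbered 15 at 1 week, 10 at 3 weeks, 4 over both, 8 for priming and 12 for culture time. Simulated libraries were independent, without a replicate effect, and 2 exceeds the fitted surface differences of the members. The recovery therefore does not say how often differences of that size would be found.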

Additional observations from a re-analysis of the deposited data

Results flagged for a closer look

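ENSRNOG00000056219 was lower on soft in all 3 same-numbered pairs at 1 week, with ratios of 0.596, 0.810 and 0.813, and higher on soft in all 4 pairs at week 5. The week 5 direction was set by the choice of the gene, so the difference between the times was not tested, and the 1-week values rest on 14 to 92 counts. Without 1w100 replicate 3 the fitted log2 fold change at 1 week was 0.57 in place of -0.40.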

How the results depend on the processing

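The number of members depended on the thresholds and the pairs. It was 2 with TMM factors in the CPM (without ENSRNOG00000056219), 0 at a ratio of 1.5, 52 at a ratio of 1.1 (added after the data were seen), 28 at a mean of 1 CPM and 3 at 50 CPM, and with 1 pair left out it ranged from 3 to 18, with 18 without soft-primed replicate 2 and 6 without replicate 1 of the soft-primed or replicate 2 of the stiff-primed pairs. The number of genes called at 3 weeks was 10 with DESeq2, 1 with the replicate block and 0 to 3 with a library left out, and over 1 and 3 weeks it was 2 with DESeq2. For the priming surface 2297 genes were called with the replicate block, 194 on only the groups compared and 393 to 2164 with a library left out: 812 without 3w2→2w100 replicate 1, 782 and 724 when replicate 1 or 2 of 5w2 was dropped, 2164 and 409 when replicate 1 or 2 of 5w100 was, and 393 when it was replicate 2 of 3w100→2w2. With the replicate block ENSRNOG00000019648 was called for the priming surface (log2 fold change 1.36, edgeR adjusted p = 0.0243) and ENSRNOG00000008697 for culture time (1.30, edgeR adjusted p = 0.0195), and no other call of the 3 genes changed. By their correlation the numbers pair the libraries at 1 week, and less clearly at 3 weeks, where r was 0.389, 0.084 and 0.465. At week 5 there are only 2 numbers. There r was 0.760 and 0.802 within a priming surface, a close pairing, and 0.168 to 0.246 across, a weak one. Pairing at week 5 is thus a hint from the data and not from the design. The block gave each number the same effect in all groups, so it did not model pairs within a time or a priming surface. With the block the 1-week log2 fold change of ENSRNOG00000008697 was -0.083 and 2 of 3 genes had the direction of the rule, as against 1 without it.

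With 1 library left out, 1 to 2 genes had that direction at 1 week, 3 at 3 weeks, and 2 to 3 over both. Their log2 fold changes then ranged at 1 week from -0.66 to 0.51 in ENSRNOG00000008697, from 0.11 to 0.65 in ENSRNOG00000019648 and from -1.50 to 0.57 in ENSRNOG00000056219, and in the latter from -0.30 to 0.73 over both times and from -0.085 to 1.00 for the priming surface. Where 1 library of a group was left, its spread was taken to be that of the other groups. Depth limits most the 1-week values of ENSRNOG00000056219, which rest on 14 to 92 counts.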
